A study of Homo sapiens with 6 samples.

Results

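The genes described here carry the signal of the B cell receptor, the surface antibody with which a B cell recognises antigen. Members were the 41 listed genes of this pathway, each read on the array probe set annotated to that symbol alone and, where a gene had more than 1 such probe set, on the one with the highest mean over all arrays. Of the 41, 40 were measured, out of 18404 genes in all, and PIK3AP1 was not measured here. Expression was profiled in the MEC-1 cell line, B cells established from a chronic lymphocytic leukemia, into which a lentivirus had carried a short hairpin RNA (shRNA). There were 3 arrays of UGT2B17 knockdown cells, whose hairpin targets an enzyme that glucuronidates androgens and other small molecules, and 3 arrays of cells with a scrambled shRNA. All cells were of the same line and grown without phenol red or antibiotics. The labels give neither the number of hairpin constructs nor clones or separate cultures. The spread behind each p-value is therefore that of these arrays, which may be technical, and effects of lower UGT2B17 cannot be told apart from effects of the hairpin on other transcripts.

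When antigen clusters the receptor, the kinases LYN, SYK and BTK assemble a complex on the adaptor BLNK that switches on phospholipase C gamma 2 (PLCG2). Its products raise calcium, which acts through calcineurin on NFAT factors, and activate protein kinase C beta (PRKCB), which signals through BCL10 and MALT1 to NF-kappaB. Phosphatases such as PTPN6 and INPP5D and the ubiquitin ligases CBL and CBLB limit the signal. Chronic lymphocytic leukemia cells are known to depend on this pathway, and inhibitors of BTK and of the phosphoinositide 3-kinase PIK3CD are used in its treatment.

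All values are deposited log2 signals, and differences are UGT2B17 knockdown minus scrambled in log2 units. Values of UGT2B17 on its own probe set were 3.19, 3.27 and 3.17 in the knockdown arrays, against 3.95, 3.69 and 3.91 in the scrambled arrays. All knockdown arrays were lower, by 0.64 ± 0.08 log2 units (SE; limma adjusted p = 0.00654), on a probe set at percentile 8.02 of all probe sets, where RMA compresses differences. Whether a probe set this dim detected UGT2B17 above background was not tested. Of 10 listed B cell markers, among them the member BLK, 9 were measured. Their mean log2 signal per array was 10.52 to 10.53 in the knockdown and 10.41 to 10.52 in the scrambled arrays. Different probe sets cannot be compared as levels, so these means and those of the other marker lists are descriptions. The means were 5.36 to 5.52 and 5.34 to 5.43 for 10 T and NK cell markers, and 5.18 to 5.23 and 5.17 to 5.27 for 10 monocyte and granulocyte markers. They were 6.10 to 6.15 and 6.03 to 6.17 for 10 epithelial and fibroblast markers, of which the keratin KRT18 rose by 0.32 log2 units (limma adjusted p = 0.0494), and 5.41 to 5.46 and 5.30 to 5.42 for 6 erythroid and platelet markers. Any pair of arrays correlated at a Pearson r of 0.991 to 0.996. Over the members alone, scrambled replicate 3 deviated most from the mean of its group, by 0.146 log2 units (root mean square), against 0.042 to 0.052 for the knockdown arrays and 0.114 and 0.064 for scrambled replicates 1 and 2. It was the scrambled array farthest from its group mean for 26 of the 40 members and for 9079 of all 18404 genes. Over all genes scrambled replicate 3 also deviated most, by 0.138 log2 units (root mean square), against 0.077 to 0.112 for the other arrays. Its larger deviation was therefore not confined to the members. The number of arrays limits the precision of every value.

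The adaptor CLNK rose and PRKCB fell in the knockdown, and the other 38 measured members did not pass. In bulk RNA, a change in all cells and a change in some of them cannot be told apart. The test was limma over all genes with a Benjamini-Hochberg adjusted p under 0.05. Of all 18404 genes, 3.61% passed this test, 1.92% higher and 1.69% lower, so 2 of 40 members is a share near that background. Members above 0 numbered 16 and members below 0 numbered 24. Their median log2 fold change was −0.07, against −0.002 for all genes. For the genes at or above the median signal, which include 38 of the members, it was −0.02. Without scrambled replicate 3 the members' median was −0.03. Of the 40 members, 37 had a 95% interval of the log2 fold change that lay wholly within 0.5 either way; the exceptions were CLNK, VAV3 and CHUK. The smallest two-sided exact permutation p that 3 against 3 arrays allow is 0.1, which CLNK, PRKCB and UGT2B17 each reached. Every gene whose groups do not overlap reaches this value, whatever the size of its gap, and 24.8% of all genes separated so. Among the members, 8 separated with the knockdown above and 12 with it below. The permutation p therefore does not set CLNK, PRKCB or UGT2B17 apart from other separated genes.

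**Figure D1:**
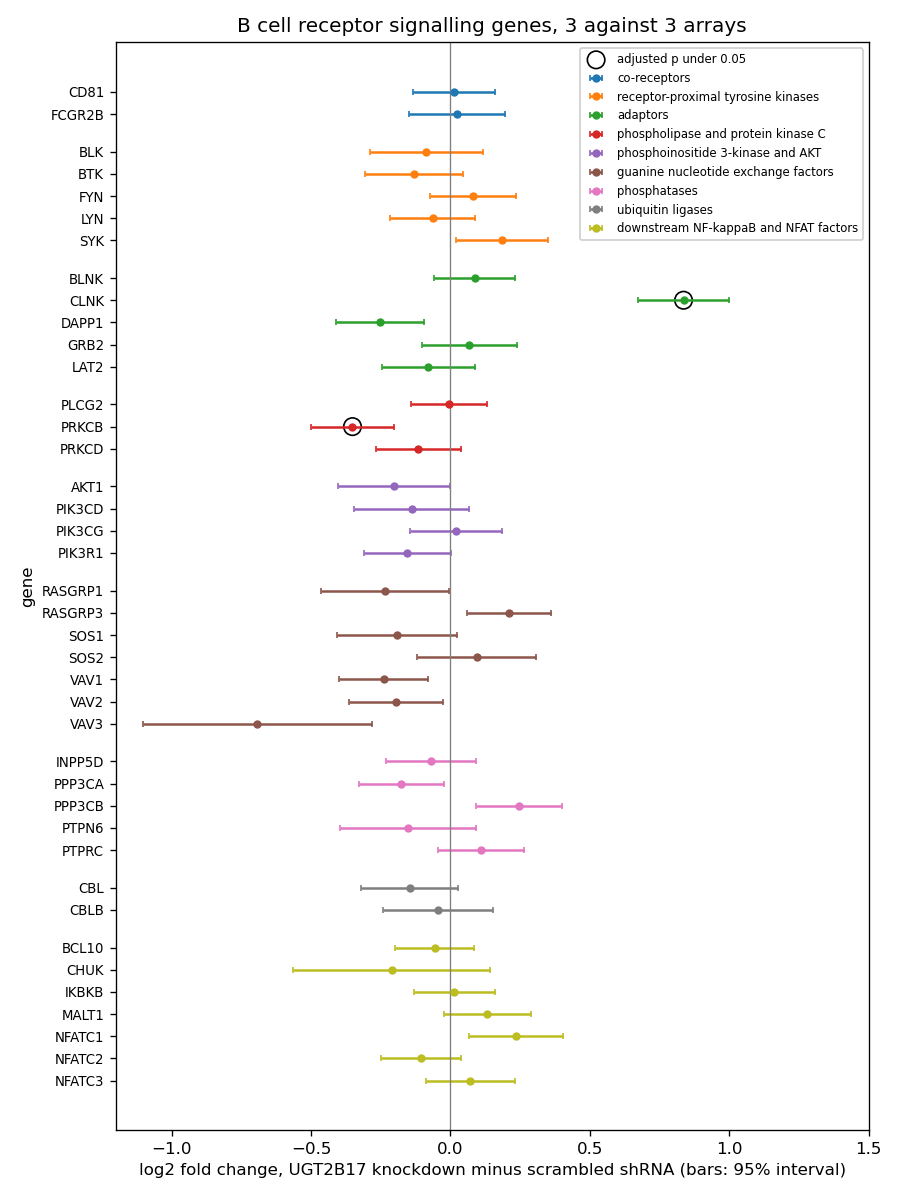
Log2 fold change of each of the 40 measured members, UGT2B17 knockdown minus scrambled shRNA (points), with 95% intervals from limma (bars), grouped by role, 3 arrays per group. CLNK at 0.84 and PRKCB at −0.35, circled, passed the test; most other intervals cross 0, and VAV3 has the widest one.

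CLNK belongs to the same adaptor family as BLNK and links immunoreceptor kinases to phospholipase C gamma and VAV proteins. Its signal was 6.87, 7.03 and 7.01 in the knockdown arrays, against 6.08, 6.13 and 6.20 in the scrambled arrays. The knockdown arrays were all higher, with a gap between the groups several times the spread within them. Its probe set was rather dim, with a mean of 6.55 over all arrays at percentile 51.9 of all probe sets. That mean lies below 7.03, the median level of all genes. CLNK averaged 6.97 ± 0.09 in knockdown cells and 6.14 ± 0.06 in scrambled cells (SD, n = 3 each). This is a log2 fold change of 0.84 ± 0.07 (SE; 95% interval 0.67 to 0.999), or 1.78-fold higher (limma adjusted p = 0.00147). It passed in each fit that included it, with a log2 fold change of 0.81 to 0.89 and an adjusted p of 2.37e-05 to 0.0210 over the alternatives.

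PRKCB, the main protein kinase C isoform downstream of the B cell receptor, read 9.15, 9.14 and 9.14 in the knockdown arrays, against 9.42, 9.49 and 9.57 in the scrambled arrays. The 3 knockdown arrays lay almost on one value, below all scrambled arrays. PRKCB averaged 9.14 ± 0.01 in knockdown cells and 9.49 ± 0.07 in scrambled cells (SD, n = 3 each). It fell by 0.35 ± 0.07 log2 units (SE; 95% interval −0.50 to −0.20), leaving 78.4% of the scrambled signal (limma adjusted p = 0.0241). The difference was −0.31 to −0.39 under every alternative, but the call depended on the arrays. Leaving out knockdown replicate 1, 2 or 3 or scrambled replicate 2 gave an adjusted p of 0.0927, 0.110, 0.105 and 0.0929 in turn. The limma adjusted p was 0.0791 when all deposited probe sets were tested and 0.0696 with a replicate block.

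The promoters of both genes that passed are shown because they are the members whose transcripts moved, and they differ in composition. Each is the 250 bases before the start listed first for the gene in RefSeq's table for GRCh38.p14, 5′ to 3′ on the strand of the gene. Windows of any further starts are not shown. CLNK lies at chr4:10684769-10685018 on the minus strand and PRKCB at chr16:23835733-23835982 on the plus strand. Capitals mark a match to the PU.1-type motif GAGGAAGT in CLNK and to the octamer ATGCAAAT, a classical motif of B cell promoters, in PRKCB.
CLNK: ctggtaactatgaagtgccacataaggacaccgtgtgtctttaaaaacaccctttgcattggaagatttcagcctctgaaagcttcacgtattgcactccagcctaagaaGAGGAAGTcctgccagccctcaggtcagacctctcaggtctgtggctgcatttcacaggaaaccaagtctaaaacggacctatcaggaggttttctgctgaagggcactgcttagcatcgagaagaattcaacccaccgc
PRKCB: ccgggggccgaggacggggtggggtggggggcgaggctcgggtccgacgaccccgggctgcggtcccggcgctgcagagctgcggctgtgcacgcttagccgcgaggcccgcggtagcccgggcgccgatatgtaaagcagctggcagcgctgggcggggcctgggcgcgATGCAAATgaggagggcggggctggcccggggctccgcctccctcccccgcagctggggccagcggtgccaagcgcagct
The CLNK window was 48.8% G and C with 5 CpG dinucleotides, and the PRKCB window was 77.2% G and C with 30. The arrays did not measure binding at either promoter.

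Among the other adaptors, none passed. DAPP1, which binds phosphoinositides at the membrane, read 9.34, 9.46 and 9.41 in the knockdown arrays, against 9.71, 9.58 and 9.67 in the scrambled arrays. The knockdown arrays were all lower, with a log2 fold change of −0.25 ± 0.07 (SE; limma adjusted p = 0.0888). DAPP1 passed when the test was restricted to the brighter genes (limma adjusted p = 0.0492) and with array weights (adjusted p = 0.0413). With array weights 5 members passed higher and 7 lower, as did 9.79% and 9.29% of all genes. The adjusted p of DAPP1 in the fit on all genes lies under the looser threshold of 0.1. BLNK, the central scaffold of the receptor complex, read 10.75, 10.73 and 10.82 in the knockdown and 10.71, 10.70 and 10.63 in the scrambled arrays. Its log2 fold change was 0.09, with a 95% interval of −0.06 to 0.23. The interval of CLNK, its relative, does not reach that range, but the difference between these genes was not tested. The linker GRB2 had a log2 fold change of 0.07 and LAT2, an adaptor of the plasma membrane, one of −0.08, and their groups overlapped.

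The kinases that start the signal did not pass, and their differences were small. SYK, which is recruited to the phosphorylated receptor chains, read 7.88, 7.98 and 8.02 in the knockdown arrays, against 7.75, 7.70 and 7.87 in the scrambled arrays. The knockdown arrays were higher by a narrow margin, with a log2 fold change of 0.19 ± 0.07 (SE; 95% interval 0.02 to 0.35; limma adjusted p = 0.225). BTK, the target of ibrutinib, read 9.15, 9.24 and 9.17 in the knockdown and 9.25, 9.24 and 9.46 in the scrambled arrays. Its log2 fold change of −0.13 had an interval of −0.31 to 0.05, and scrambled replicate 3 stood above the rest; without it the value was −0.06. The SRC family kinases LYN, BLK and FYN had log2 fold changes of −0.06, −0.09 and 0.08, with overlapping groups. At the surface, CD81, a tetraspanin, had a log2 fold change of 0.01 with an interval of −0.13 to 0.16.

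FCGR2B, the inhibitory Fc receptor of B cells, differed between its probe sets. On the probe set naming it alone the log2 fold change was 0.02, with 9.68, 9.73 and 9.70 in the knockdown arrays and 9.57, 9.66 and 9.81 in the scrambled arrays. A probe set shared with its near-identical relative FCGR2C read 11.63, 11.66 and 11.60 in the knockdown arrays, against 11.33, 11.37 and 11.31 in the scrambled arrays. There all knockdown arrays were higher, by 0.30 ± 0.06 log2 units (SE). This difference did not pass over all deposited probe sets (limma adjusted p = 0.0988). Only 0.511% of probe sets passed that test, and PRKCB did not (adjusted p = 0.0791). The fit on genes, by which members were called, did not include probe sets with several symbols. Which of the 2 genes gave the shared signal cannot be told apart.

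PLCG2, the phospholipase that BTK and BLNK activate, did not pass on either of its probe sets. On the brighter one it read 13.44, 13.45 and 13.44 in the knockdown arrays, against 13.41, 13.48 and 13.45 in the scrambled arrays. The log2 fold change was −0.004 ± 0.06 (SE; 95% interval −0.14 to 0.13), on a probe set at percentile 99.8, where array signal can be compressed. The dimmer one gave 10.84, 10.86 and 10.89 in the knockdown and 10.93, 10.99 and 10.97 in the scrambled arrays. Its groups did not overlap, with a log2 fold change of −0.10 ± 0.06 (SE; adjusted p = 0.425 over single-gene probe sets). PRKCD, a protein kinase C that restrains B cells in the mouse, had a log2 fold change of −0.12 with an interval of −0.27 to 0.04. PRKCB was the member of this group with the larger difference, and the difference between the isoforms was not tested.

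Of the phosphoinositide 3-kinase genes and AKT1, 3 of 4 had a log2 fold change below 0, and none passed. AKT1, the serine/threonine kinase that the lipid product recruits, read 10.84, 10.79 and 10.80 in the knockdown arrays, against 10.89, 10.95 and 11.21 in the scrambled arrays. The groups did not overlap, but scrambled replicate 3 stood well above the other arrays, and the log2 fold change of −0.20 (limma adjusted p = 0.268) was −0.11 without it. PIK3R1, the regulatory subunit, had a log2 fold change of −0.16 with non-overlapping groups (adjusted p = 0.277). PIK3CD, the catalytic subunit targeted by idelalisib, read 8.68, 8.63 and 8.77 in the knockdown and 8.70, 8.78 and 9.02 in the scrambled arrays, with overlapping groups. Its log2 fold change of −0.14 was −0.05 without scrambled replicate 3. PIK3CG, another catalytic subunit, had one of 0.02.

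All 3 VAV genes, which encode exchange factors for RAC GTPases, were lower in every knockdown array than in any scrambled array, as were 13.1% of all genes, and none passed. VAV3 read 5.62, 5.70 and 5.82 in the knockdown arrays, against 6.16, 6.16 and 6.90 in the scrambled arrays. One scrambled array, replicate 3, lay far above the other 2. The log2 fold change was −0.69 ± 0.18 (SE; 95% interval −1.10 to −0.28; limma adjusted p = 0.0760), on a dim probe set at percentile 44.6. Without scrambled replicate 3 it was −0.45 and passed (adjusted p = 0.0191). VAV1, the isoform of blood cells, read 8.54, 8.49 and 8.50 in the knockdown arrays, against 8.70, 8.68 and 8.87 in the scrambled arrays. Its log2 fold change was −0.24 ± 0.07 (SE; adjusted p = 0.113), the knockdown arrays being close together. VAV2 read 8.99, 9.05 and 8.99 in the knockdown arrays, against 9.08, 9.23 and 9.30 in the scrambled arrays. The lowest scrambled array came close to the knockdown arrays, with a log2 fold change of −0.20 ± 0.07 (SE; adjusted p = 0.209).

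The exchange factors for RAS pointed in different directions, and none passed. RASGRP3, the diacylglycerol-activated factor prominent in B cells, read 10.13, 10.18 and 10.24 in the knockdown arrays, against 10.04, 9.91 and 9.97 in the scrambled arrays. Its log2 fold change was 0.21 ± 0.07 (SE; limma adjusted p = 0.132), all knockdown arrays being higher. RASGRP1, its relative best known in T cells, read 6.92, 7.03 and 7.05 in the knockdown arrays, against 7.46, 7.07 and 7.18 in the scrambled arrays. Scrambled replicate 1 was the high array, and the log2 fold change of −0.24 (adjusted p = 0.266) was −0.12 without it and −0.09 with array weights. SOS1 and SOS2, which GRB2 carries to RAS, had log2 fold changes of −0.19 and 0.09, with overlapping groups.

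PPP3CB and PPP3CA, catalytic subunits of calcineurin, separated the groups in opposite directions, and neither passed. PPP3CB read 8.94, 9.04 and 8.96 in the knockdown arrays, against 8.66, 8.75 and 8.80 in the scrambled arrays. All knockdown arrays were higher, with a log2 fold change of 0.25 ± 0.07 (SE; limma adjusted p = 0.0931). PPP3CA read 9.83, 9.86 and 9.83 in the knockdown arrays, against 10.11, 10.00 and 9.94 in the scrambled arrays. All knockdown arrays were lower, with a log2 fold change of −0.18 ± 0.07 (SE; adjusted p = 0.211). PPP3CC, a catalytic subunit on the list of other pathway genes, had a log2 fold change of −0.02 with overlapping groups. The difference between the subunits was not tested.

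The phosphatases that act at the membrane did not pass. PTPN6, or SHP-1, read 10.77, 10.73 and 10.74 in the knockdown arrays, against 10.69, 10.86 and 11.15 in the scrambled arrays. The groups overlapped, scrambled replicate 3 was the high array, and the log2 fold change of −0.15 was −0.03 without it. INPP5D, or SHIP1, which removes a phosphate from the lipid product of the 3-kinase, had a log2 fold change of −0.07, and PTPRC, or CD45, which activates SRC family kinases, one of 0.11. The ubiquitin ligases CBL and CBLB had log2 fold changes of −0.15 and −0.04 with overlapping groups.

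Downstream, none of the 7 factors passed. NFATC1, a calcineurin-dependent transcription factor, read 8.92, 8.71 and 8.77 in the knockdown arrays, against 8.53, 8.60 and 8.57 in the scrambled arrays. All knockdown arrays were higher, and knockdown replicate 1 the highest, with a log2 fold change of 0.24 ± 0.07 (SE; limma adjusted p = 0.131). NFATC2 and NFATC3 had log2 fold changes of −0.11 and 0.07. On the NF-kappaB branch, MALT1, a paracaspase, had a log2 fold change of 0.13 with non-overlapping groups, and its partner BCL10 one of −0.06. The kinases IKBKB and CHUK, which release NF-kappaB from its inhibitors, had log2 fold changes of 0.01 and −0.21. CHUK read 7.80, 7.96 and 7.68 in the knockdown arrays, against 7.75, 7.92 and 8.41 in the scrambled arrays, so that scrambled replicate 3 alone set its difference apart: without it the value was −0.02.

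**Figure D2:**
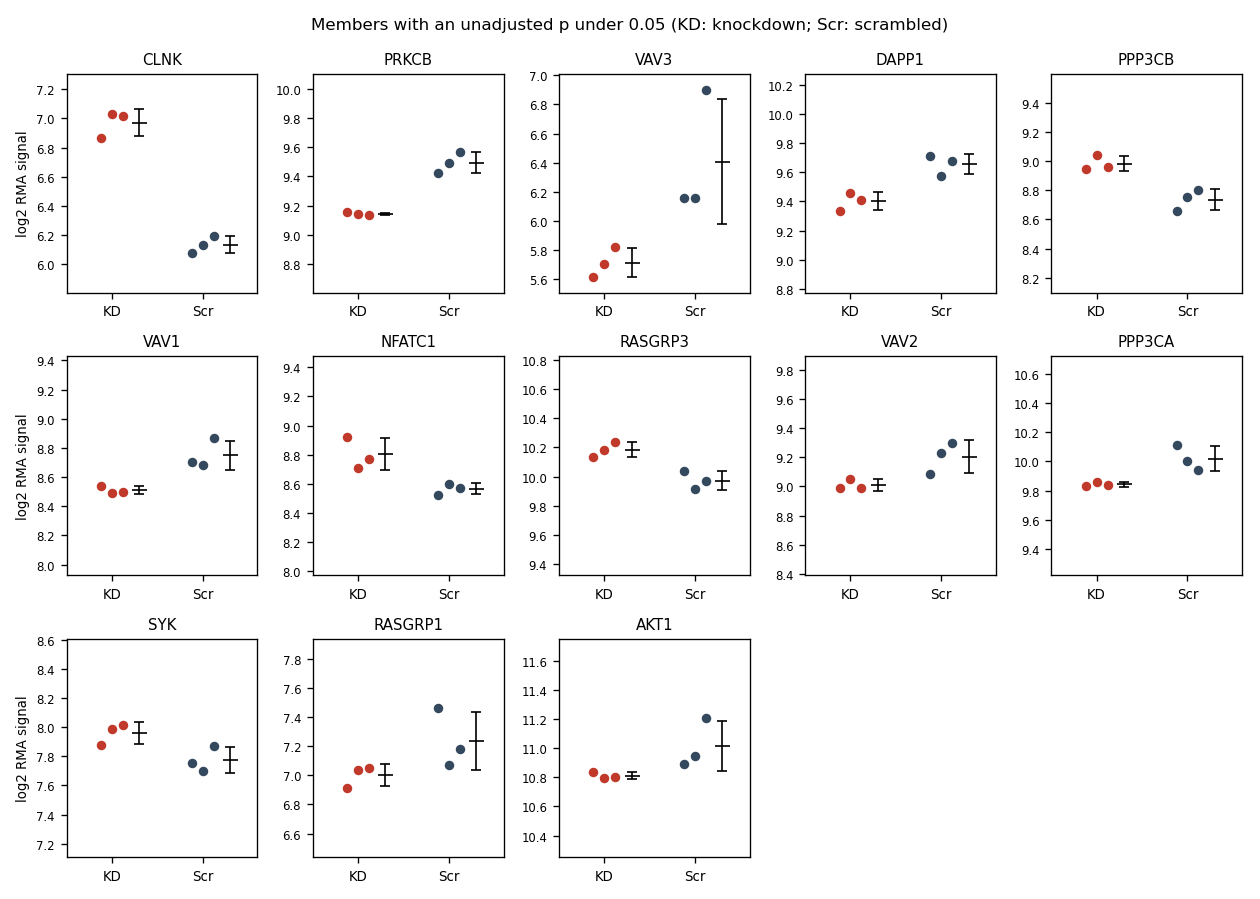
Log2 RMA signal of the 13 members with an unadjusted p under 0.05 in each array (points), UGT2B17 knockdown (KD) left of scrambled shRNA (Scr), with the mean and SD of 3 arrays beside the points; every panel spans the same number of log2 units. CLNK shows the widest gap between groups, and VAV3 a scrambled array, replicate 3, far above the other 2.

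The groups did not overlap for 20 of the 40 members, 8 with the knockdown above and 12 with it below, while 24.8% of all genes separated in this way, 11.8% above and 13.1% below. An unadjusted p under 0.05 was reached by 13 members, 5 higher and 8 lower, and by 18.2% of all genes, 8.7% higher and 9.45% lower. Both shares are higher among genes with bright probe sets. Of the genes at or above the median mean signal of 7.03, 35.1% separated and 25.6% had an unadjusted p under 0.05. Of the 38 members in that range, 18 separated and 11 had an unadjusted p under 0.05. Arrays within a group were close for the 40 members, with a median SD of 0.045 log2 units in the knockdown and 0.087 in the scrambled arrays. Over all genes, dim ones included, the values were 0.072 and 0.097.

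**Figure D3:**
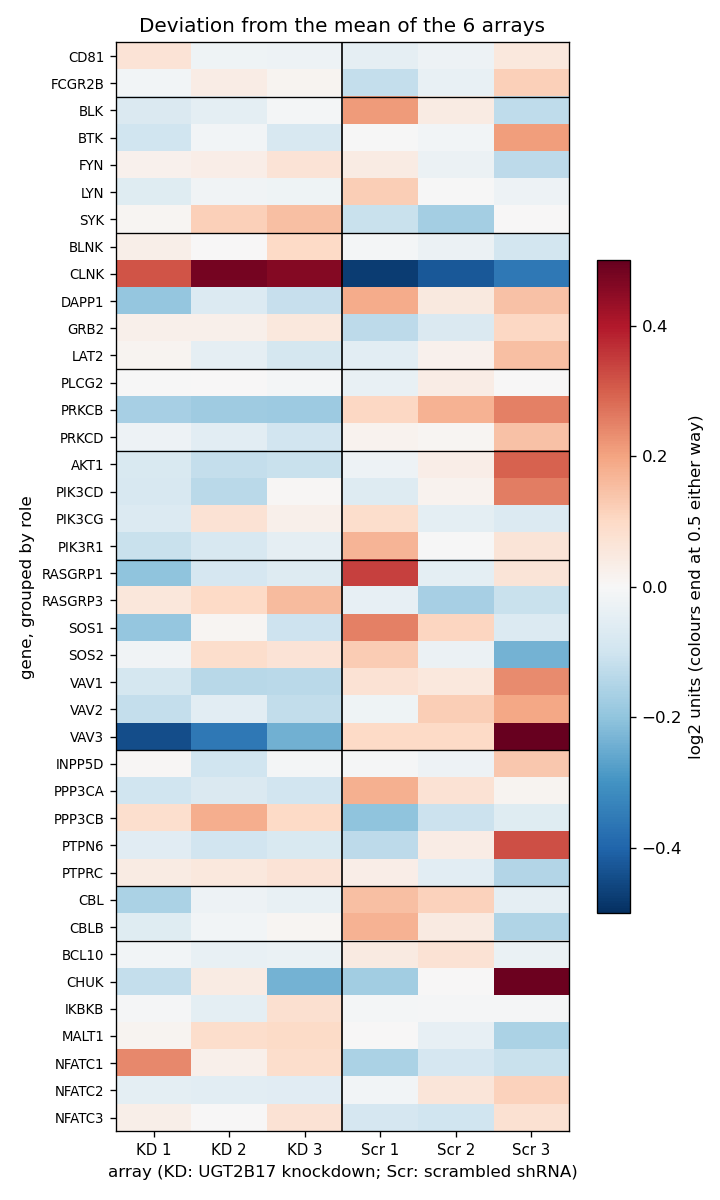
Deviation of each of the 40 members from its mean over the 6 arrays, in log2 units, with UGT2B17 knockdown arrays (KD 1 to 3) left of scrambled arrays (Scr 1 to 3) and genes grouped by role (black lines). CLNK, PRKCB and the VAV genes change colour between the groups, while AKT1, PTPN6, CHUK and VAV3 are darkest in scrambled replicate 3.

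The other genes of the pathway came from a list of 99, of which 82 were measured. Of these, 4 rose and 1 fell, 77 did not pass, and the median log2 fold change was 0.05. Of all genes, 1.92% passed higher and 1.69% lower. GAB2, PAG1 and UBASH3B, which rose, are scaffolds or regulators of proximal signalling. GAB2, which binds the phosphatase SHP-2 and the 3-kinase, read 6.16, 6.10 and 6.35 in the knockdown arrays, against 5.68, 5.74 and 5.59 in the scrambled arrays. The log2 fold change was 0.54 ± 0.08 (SE; limma adjusted p = 0.0127), with every knockdown array above every scrambled one. PAG1, a membrane adaptor that brings the inhibitory kinase CSK to SRC family kinases, read 6.13, 6.30 and 6.15 in the knockdown arrays, against 5.79, 5.62 and 5.36 in the scrambled arrays. It rose by 0.60 ± 0.11 log2 units (SE; adjusted p = 0.0223), and scrambled replicate 3 was its lowest array. UBASH3B, a phosphatase that acts on SYK and ZAP70, read 6.11, 6.13 and 6.23 in the knockdown arrays, against 5.74, 5.87 and 5.73 in the scrambled arrays, and rose by 0.38 ± 0.07 (SE; adjusted p = 0.0249). These 3 probe sets were dim, at percentiles 42.7, 42.0 and 43.2.

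EGR1, an immediate early transcription factor, read 9.38, 9.11 and 9.18 in the knockdown arrays, against 8.53, 8.67 and 8.89 in the scrambled arrays, and rose by 0.53 ± 0.11 log2 units (SE; limma adjusted p = 0.0340). FCRL3, an Fc receptor-like protein with inhibitory motifs, read 6.19, 5.90 and 6.19 in the knockdown arrays, against 6.85, 6.68 and 6.50 in the scrambled arrays. It fell by 0.59 ± 0.11 (SE; adjusted p = 0.0249), with no overlap between the groups. Of the receptor chains themselves, CD79A and CD79B had log2 fold changes of −0.01 and 0.05 and the kappa light chain constant region IGKC one of 0.03. The receptor chain genes IGHM and IGHD, also on the list, were not measured. Of the 82 genes, leaving out scrambled replicate 3 gave 8 higher calls and 1 lower, against 2.12% and 2% of all genes. Leaving out scrambled replicate 1 gave 4 and 2, against 2.01% and 1.76%. Leaving out scrambled replicate 2 or knockdown replicate 2 gave 1 higher call, GAB2 both times, and 0 lower calls. Of all genes, 0.522% and 0.5% passed higher and lower in the first of these fits, and 0.408% and 0.418% in the second. Leaving out knockdown replicate 1 or 3 gave 0 calls, while 0.983% and 0.951% of all genes passed in either direction. When all deposited probe sets were tested, 0 of these 82 genes passed in limma, whereas 26 had an unadjusted p under 0.05 in the fit on genes. The same shares were 0.511% of all deposited probe sets and 18.2% of all genes.

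**Figure D4:**
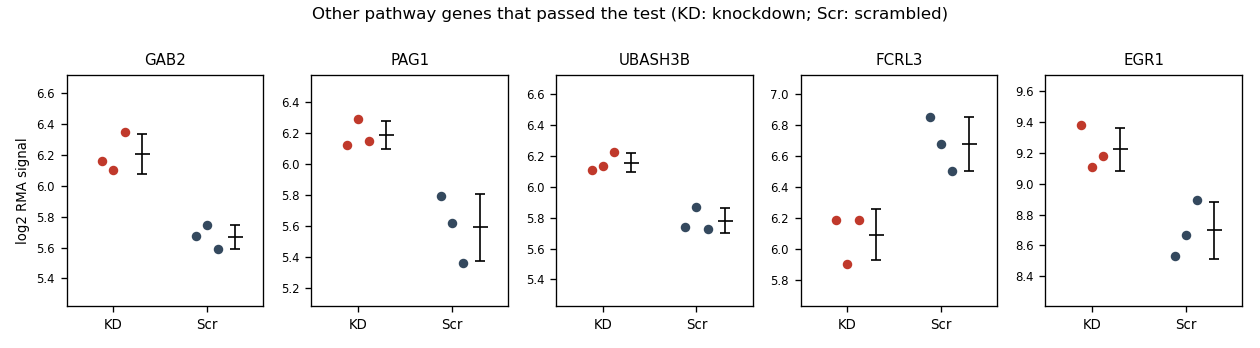
Log2 RMA signal in each array of the 5 other pathway genes that passed (points), UGT2B17 knockdown (KD) left of scrambled shRNA (Scr), with the mean and SD of 3 arrays beside the points. GAB2, PAG1, UBASH3B and EGR1 are higher and FCRL3 is lower in all knockdown arrays.

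A sequence feature that the choice of members did not use was a PU.1-type motif. PU.1 is an ETS family factor of B cells and myeloid cells. RefSeq's table listed 33 of the 41 members, PIK3AP1 among them, with 59 promoter windows of 250 bases; IKBKB, BLK, LYN, PPP3CA, PPP3CB, LAT2, CBL and CD81 were not matched. The letters GAGGAAGT, searched on both strands, stood in 7 of these windows, 11.9%, and in 2.17% of all 35116 windows, which include those of noncoding genes. Each of the 7 matches is shown within a stretch of 30 bases, 5′ to 3′ on the strand of the gene in GRCh38.p14. The matches are shown because they include genes with log2 fold changes of either sign. Capitals mark the match, written ACTTCCTC where it lies on the opposite strand.
BTK: ttcccgatcgcACTTCCTCatgggagtcgg
CLNK: cagcctaagaaGAGGAAGTcctgccagccc
INPP5D: gtttctgtaatGAGGAAGTtctccgcagct
PIK3CG: gtaactgcaacACTTCCTCtgcatctggat
RASGRP3: ggaaagaatagGAGGAAGTctgcctgccat
SYK: cgcgacactggGAGGAAGTgcgggccgcct
VAV1: gacagttacaggcaaagaaGAGGAAGTggt
They lie at chrX:101390949-101390978 (minus strand), chr4:10684890-10684919 (minus), chr2:233060268-233060297 (plus), chr7:106865276-106865305 (plus), chr2:33436296-33436325 (plus), chr9:90801726-90801755 (plus) and chr19:6772678-6772707 (plus), in the same order. Of these 7 genes CLNK rose and the other 6 did not pass, with log2 fold changes of −0.13 for BTK, −0.07 for INPP5D, 0.02 for PIK3CG, 0.21 for RASGRP3, 0.19 for SYK and −0.24 for VAV1. The octamer ATGCAAAT stood in 1.69% of the members' windows and 1.63% of all windows, the ETS motif CCGGAAGT, which shares its last letters with the PU.1-type motif, in 1.69% and 3.42%, the E-box CAGGTG in 25.4% and 17.5%, and TATAAA in 6.78% and 10.7%. A match of letters is a description and does not show binding.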

How the data were processed

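Total RNA of 6 MEC-1 samples was biotin-labelled and hybridised to 1 Affymetrix array each, per the labels. The authors' deposited values are log2 signals made with RMA, per the submitters' processing notes (version and annotation build not given in the sources used here); they run from 2.20 to 14.3 on 32321 probe sets and were not transformed further. Quantile normalisation within RMA hides a shift shared by most genes. The platform annotation gives 19158 probe sets 1 symbol and 1388 several; 11775 are unnamed here. Where a gene had more than 1 probe set, that with the highest mean was kept, leaving 18404 genes, with no filter on dim ones.

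The groups, taken from the labels, entered a limma fit (version 3.58.1, R 4.3.3; eBayes defaults, two-sided, no covariate) on all genes with Benjamini-Hochberg adjustment and a threshold of 0.05; the prior had 4.82 degrees of freedom. The fit was tested on simulated data, where it recovered most of the larger changes and none of the smallest. A gene that did not pass may therefore still have changed by a small amount. Same-numbered replicates did not deviate together (r of deviations −0.054, −0.067 and −0.033), so no block was used. Alternatives were another quantile normalisation, centring, brighter genes only, an intensity trend, a robust prior, array weights, mean over probe sets, all deposited probe sets, a replicate block, each array left out, an adjusted p under 0.1, and a log2 fold change of at least 0.5. Members and lists were chosen with earlier results of these data known. All measured members are named; array values are given for those with an unadjusted p under 0.05, for the brightest and dimmest member, and for others the text turns on; of the other pathway genes, those that passed. BTK, BLNK, FCGR2B, PIK3CD, PTPN6 and CHUK were given in full, and the receptor chains named, after their values were seen. Motifs were searched with Python 3.11.15.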

Additional observations from a re-analysis of the deposited data

How the results depend on the processing

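Of the 40 members, 33 kept the sign of their log2 fold change under all 15 alternative fits that included them. The other 7 had a value within 0.1 of 0 to begin with and turned in 12 results. Centring arrays on their median gave CD81 −0.0108, PIK3CG −0.00369 and IKBKB −0.00916. With 1 array left out, CD81 ran from −0.0183 to 0.0419, PIK3CG from −0.0118 to 0.0681, IKBKB from −0.0214 to 0.0430, FCGR2B from −0.0295 to 0.0897, CBLB from −0.131 to 0.0307, PLCG2 from −0.0231 to 0.0136 and SOS2 from −0.00171 to 0.181. The cause was not tested. CLNK passed in all 14 fits that included it and is too dim for the fit on brighter genes, where 0 members were higher and 2 (DAPP1 and PRKCB) lower, against 4.52% and 4.13% of the genes tested there. The counts of members called higher and lower were 2 and 3 at an adjusted p under 0.1 (3.33% and 3.23% of all genes), 1 and 0 with a log2 fold change of at least 0.5 (0.706% and 0.581%), 5 and 7 with array weights (9.79% and 9.29% of all genes), and 1 and 0 over all deposited probe sets (0.266% and 0.244% of them), where more features were tested. Array weights called CLNK, NFATC1, PPP3CB, RASGRP3 and SYK higher, and CBL, DAPP1, PPP3CA, PRKCB, VAV1, VAV2 and VAV3 lower. With 1 array left out the counts of members called higher and lower ran from 1 to 1 and from 0 to 2, in fits with fewer samples. Those of all genes ran from 0.408% to 2.12% and from 0.418% to 2%. The members' median log2 fold change ran from −0.0842 to −0.0265 in those fits, with the value nearest 0 without scrambled replicate 3. With the replicate block, PRKCB did not pass (adjusted p = 0.0696), VAV3 passed (adjusted p = 0.0402), and 367 genes were called in place of 665. The counts over the 82 other pathway genes, an alternative chosen after seeing the data, were 21 higher and 6 lower with array weights. They were 2 and 1 with the replicate block. Of all genes, 9.79% and 9.29% passed with array weights, and 1.03% and 0.967% with the replicate block.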
